A study of Mus musculus with 2 samples.

Results

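The 8 microRNA (miRNA) genes described here belong to 2 families, each defined by a shared seed, the bases by which a miRNA pairs with its target messages. Mir34a, Mir34b, Mir34c, Mir449a, Mir449b and Mir449c form the family of miR-34 and miR-449, and Mir204 and Mir211 form that of miR-204 and miR-211. They were taken by name, with no measured value in the rule, from 2202 annotated miRNA genes that were counted in mouse hippocampus. Earlier results of these data were known when they were chosen. All 8 were found in the tables, and 5 of them reached 10 counts or more in each library.

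The libraries hold small RNA from females of the hybrid B6CASTF1/J, the first generation of a cross of a C57BL/6 with a castaneus-derived strain, at an age of 2 months. The labels name no treatment, transgene or deletion, so the series has 1 group with biological replicates 2 and 1, and its design allows the comparison of these 2 libraries. The labels call the tissue a hippocampal layer without naming it, and give both tissue samples the same donor record. They do not say that separate animals were used, so a difference between the libraries may be partly technical. Counts of reads on the sense strand of miRNA genes came to 5979247 in replicate 2 and 4517648 in replicate 1, and levels are given as counts per 1000000 of these counts (CPM). A further 48.4% of the reads of replicate 2 and 45.9% of those of replicate 1 mapped to several places and carry no gene. A fixed list of 4 neuronal miRNAs summed to 44152 CPM in replicate 2 and 38992 in replicate 1, and all 4 were detected. In bulk tissue, fewer cells of a type and less RNA per cell cannot be told apart.

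A miRNA is cut from a hairpin transcript, and one arm of the hairpin, usually about as long as the reads, is loaded into the silencing complex. The miR-34 and miR-449 genes are known for acting together in multiciliated cells, where they promote the formation of motile cilia, and Mir34a is a well studied target of the tumour suppressor p53. In the brain, multiciliated cells form the ependyma that lines the ventricles, and the related choroid plexus epithelium secretes cerebrospinal fluid. miR-204 and miR-211 are known from choroid plexus and from pigmented cells of the eye and skin, and both are made from introns of channel genes of the melastatin group of transient receptor potential channels.

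The mature sequences are shown because they define the families and because their likeness bears on how reads can be told apart. They are from RefSeq on GRCm38.p6, the same assembly as mm10, and 7 of the 8 genes had an entry. Mir449b and the 5p arm of Mir34c are not in the table used here. In each line the capitals mark the seed, bases 2 to 8 from the 5′ end.
miR-34a-5p: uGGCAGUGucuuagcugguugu
miR-34b-5p: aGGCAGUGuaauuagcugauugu
miR-449a-5p: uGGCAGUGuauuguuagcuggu
miR-449c-5p: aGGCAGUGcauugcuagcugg
miR-204-5p: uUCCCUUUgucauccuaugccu
miR-211-5p: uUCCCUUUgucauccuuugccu
The first 4 carry the seed GGCAGUG and the last 2 the seed UCCCUUU. Among 1679 mature mouse miRNAs in the RefSeq table, 4 (0.238%) had GGCAGUG as their seed, and these are the 4 family arms printed above. UCCCUUU was the seed of 3 (0.179%), of which miR-7670-3p is no member, and its gene Mir7670 had 0 counts in both libraries.

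The hairpin of Mir34c is printed whole because it holds the family seed, here in capitals from base 14 counted from the 5′ end, and the hairpin of Mir34b is set beside it because both lie in the same cluster.
Mir34c hairpin, chr9:51103034-51103110, minus strand: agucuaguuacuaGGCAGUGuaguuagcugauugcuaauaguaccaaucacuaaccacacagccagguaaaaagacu
Mir34b hairpin, chr9:51103562-51103645, minus strand: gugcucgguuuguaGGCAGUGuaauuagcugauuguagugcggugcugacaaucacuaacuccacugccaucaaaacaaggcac
The letters GGCAGUG, searched on the transcribed strand, are in 17 of 997 RefSeq mouse hairpins (1.71%), and once in the hairpin of each miR-34 or miR-449 gene with an entry. Set against the 23 bases of miR-34b-5p, the matching stretch of the Mir34c hairpin differs by A11G and U23C, with positions counted from the 5′ end of miR-34b-5p. The opposite arms, which also share a seed, are shown with it in capitals.
miR-34b-3p: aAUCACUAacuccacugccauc
miR-34c-3p: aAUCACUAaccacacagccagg
These 2 arms differ at 5 of 22 positions and are the 2 mature miRNAs in the table with the seed AUCACUA. miR-211-5p differs from miR-204-5p by the single substitution A17U, counted from the 5′ end, so the arms share 16 bases in a row. Over whole hairpins of the GENCODE annotation, Mir204 and Mir211 share 17 bases and no member shares 20 or more with another of the 2202 genes. No member thus has a whole arm in common with another gene. A single substitution separates miR-204-5p and miR-211-5p, however, and 2 separate miR-34b-5p from the matching stretch of the Mir34c hairpin. The sources used here do not say how reads with mismatches, or with strain differences of the hybrid, were placed.

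In the family of miR-204 and miR-211 nearly all counts came from Mir204, which lies within an intron of Trpm3 on the plus strand (ENSMUSG00000065507.3, chr19:22750605-22750672). Its counts were 6887 in replicate 2 and 3806 in replicate 1, or 1152 CPM (95% Wilson interval 1125 to 1179) and 842 CPM (816 to 870). Its mean of 997 ± 219 CPM (SD, n = 2) was the highest of the 8 genes and placed it 94th among all miRNA genes. Both libraries had a Mir204 level above that of every other member.

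Mir211, within an intron of Trpm1, the channel gene of melanocytes and retinal bipolar cells, was close to the limit of detection (ENSMUSG00000065585.1, chr7:64205806-64205911). Its counts were 13 in replicate 2 and 5 in replicate 1, or 2.17 CPM (95% Wilson interval 1.27 to 3.72) and 1.11 CPM (0.473 to 2.59). The intervals overlap, and a count of 0 would have allowed up to 3 counts, which is 0.502 CPM in replicate 2 and 0.664 CPM in replicate 1. Counts of Mir204 were 530 times those of Mir211 in replicate 2 (95% exact interval 310 to 995) and 761 times in replicate 1 (326 to 2346). Mir211 held 0.188% of the family's counts in replicate 2 and 0.131% in replicate 1. How far reads of Mir204, whose arm differs by 1 substitution, enter these counts of Mir211 was not tested.

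In the family of miR-34 and miR-449 most counts came from Mir34a and Mir34c, whose means over both libraries were close although their order differed between the libraries. Mir34a, the member best known as a p53 target, lies on chromosome 4 (ENSMUSG00000065493.1, chr4:150068454-150068555, plus strand), where it overlaps an exon of the gene model Gm37795 without being contained in it. Its counts were 4045 in replicate 2 and 3004 in replicate 1, or 677 CPM (95% Wilson interval 656 to 698) and 665 CPM (642 to 689). Its mean was 671 ± 8.17 CPM (SD, n = 2), 118th among all genes.

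Mir34c, the abundant member of the cluster on chromosome 9 (ENSMUSG00000065587.1), had 4528 counts in replicate 2 and 2431 in replicate 1, or 757 CPM (736 to 780) and 538 CPM (517 to 560). Its mean was 648 ± 155 CPM (SD, n = 2), 120th among all genes. Mir34a was below Mir34c in replicate 2 and above it in replicate 1, at a ratio of Mir34a to Mir34c of 0.893 (95% exact interval 0.856 to 0.932) and 1.24 (1.17 to 1.30). The means of these 2 genes differed by 23.0 CPM, less than the SD of Mir34c. Divided by hairpin length the order of the means turned, with 841 ± 201 CPM per 100 bases for Mir34c and 658 ± 8.01 for Mir34a (SD, n = 2). All other members kept their places.

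Mir34b, which is cut from the same primary transcript as Mir34c, was far below it (ENSMUSG00000065492.1). Its counts were 124 in replicate 2 and 122 in replicate 1, or 20.7 CPM (17.4 to 24.7) and 27.0 CPM (22.6 to 32.2). Its hairpin ends 451 bases before that of Mir34c begins, and both are on the minus strand within an intron of Btg4, a gene of the antiproliferative BTG family transcribed from the other strand. Counts of Mir34c were 36.5 times those of Mir34b in replicate 2 (95% exact interval 30.5 to 44.0) and 19.9 times in replicate 1 (16.6 to 24.1), and these intervals do not overlap. This ratio does not depend on how the libraries are scaled, and it was 1.83 times as high in replicate 2 as in replicate 1. How far reads of Mir34c, whose matching stretch differs from miR-34b-5p by A11G and U23C, enter these counts of Mir34b was not tested.

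The miR-449 cluster lies on the plus strand of chromosome 13 in an intron of Cdc20b, a gene known from multiciliated cells, and its 3 hairpins follow each other in the order Mir449c, Mir449b and Mir449a. Mir449a (ENSMUSG00000065575.1, chr13:113037534-113037624) had 552 counts in replicate 2 and 420 in replicate 1, or 92.3 CPM (84.9 to 100.3) and 93.0 CPM (84.5 to 102.3). Its mean of 92.6 ± 0.459 CPM (SD, n = 2) placed it 201st.

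Mir449b (ENSMUSG00000078027.1, chr13:113037419-113037498), whose hairpin ends 35 bases before that of Mir449a, had 0 counts in both libraries, which allows up to 0.502 CPM in replicate 2 and 0.664 CPM in replicate 1. Counts of Mir449a were 184 times this limit of 3 counts in replicate 2 and 140 times in replicate 1. The 95% exact lower limits of the ratio of Mir449a to Mir449b were 149 in replicate 2 and 113 in replicate 1. Mir449c (ENSMUSG00000076146.1, chr13:113035983-113036091), 1327 bases before Mir449b, had 2 counts in replicate 2 and 1 in replicate 1. The ratio of Mir449a to Mir449c was 276 in replicate 2 (95% exact interval 76.0 to 2285) and 420.0 in replicate 1 (75.0 to 16628). In both clusters of the family, the hairpin at the downstream end held nearly all counts.

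**Figure D1:**
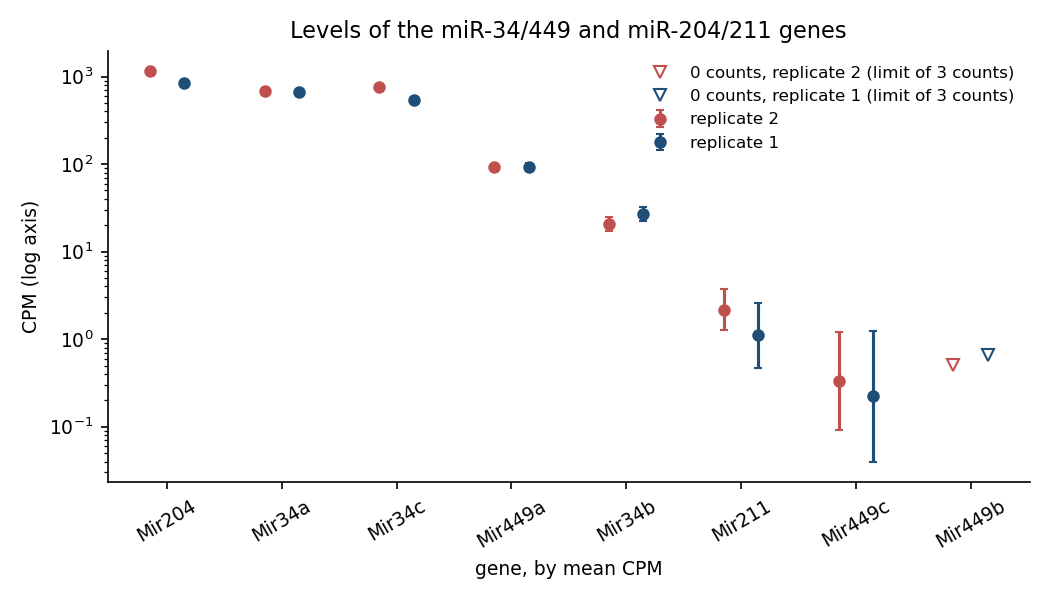
Level of each gene in CPM on a log axis, ordered by mean, with replicate 2 left of replicate 1. Filled points are counts with 95% Wilson intervals and open triangles mark the limit of 3 counts for Mir449b, so that the genes range from 1152 CPM for Mir204 in replicate 2 to no count.

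**Figure D2:**
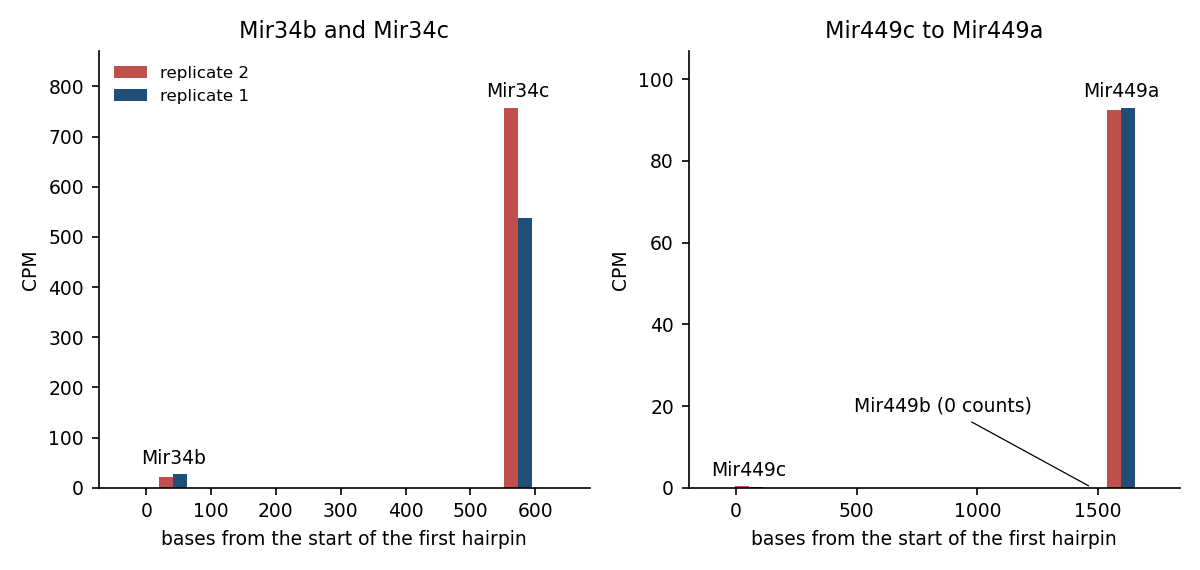
CPM of the genes of both clusters, plotted in the direction of transcription by distance in bases from the start of the first hairpin, with replicate 2 left of replicate 1. Mir34c, 451 bases after Mir34b, and Mir449a, 35 bases after Mir449b, stand far above the other genes of their clusters.

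From high to low, the order of the levels by mean CPM was Mir204, Mir34a, Mir34c, Mir449a, Mir34b, Mir211, Mir449c and Mir449b, as the plot of levels by gene shows. Among neighbours in this order, the values of both libraries overlapped for Mir34a and Mir34c and were separate for the others, although Mir449c and Mir449b cannot be separated at this depth. Each read stands for 1 arm of similar length, so CPM is not divided by hairpin length in this order.

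Of all 2202 genes, 1428 (64.9%) had no count in either library and 420 (19.1%) reached 10 or more in each. Among those 420 genes, with a median of 85.3 CPM, Mir449a stood near the middle, Mir34b below it and Mir204, Mir34a and Mir34c above it. The most abundant gene, Mirlet7g, held 12.4% of the counts, against 0.270% in replicate 2 and 0.217% in replicate 1 for the 8 genes together. Reads that mapped to several places are not in these counts, so shares and places hold only among reads given to a gene.

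**Figure D3:**
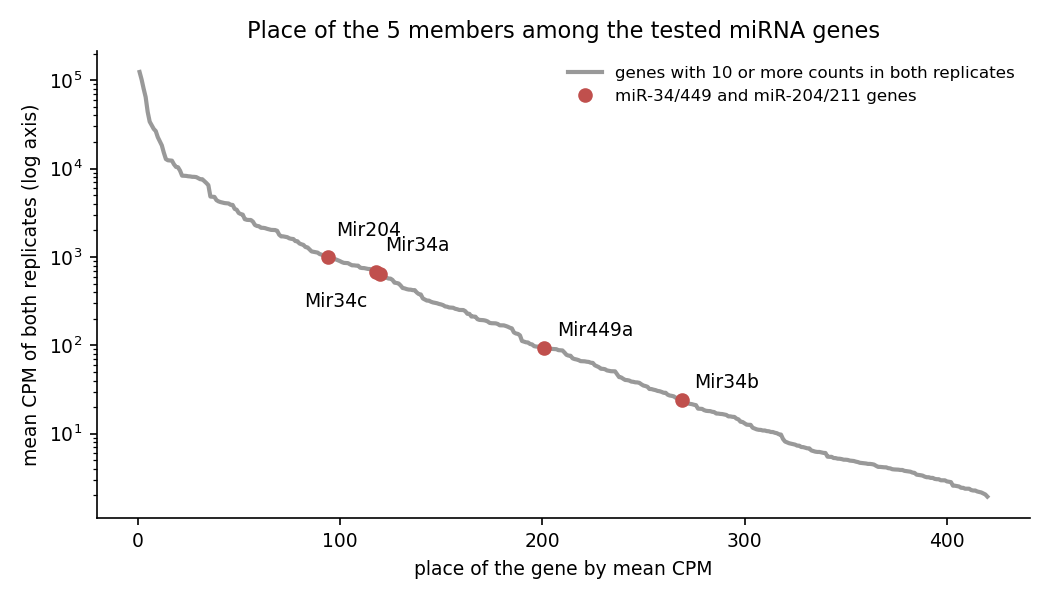
Mean CPM, on a log axis, of the 420 genes that reached 10 counts in each library against their place in the order, with the 5 members among them marked. Mir204 stands at place 94 and Mir34b at place 269.

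The genes of miR-34 and miR-449 summed to 9251 counts in replicate 2 and 5978 in replicate 1, or 0.155% of all counts (95% Wilson interval 0.152 to 0.158) and 0.132% (0.129 to 0.136). Those of miR-204 and miR-211 summed to 6900 counts in replicate 2 and 3811 in replicate 1, or 0.115% (0.113 to 0.118) and 0.0844% (0.0817 to 0.0871). Replicate 2 was 1.17 times replicate 1 for the miR-34 and miR-449 sum (95% interval of counting error 1.13 to 1.21) and 1.37 times for the miR-204 and miR-211 sum (1.31 to 1.42). The sum of the miR-34 and miR-449 genes was 1.34 times that of the miR-204 and miR-211 genes in replicate 2 (95% exact interval 1.30 to 1.38) and 1.57 times in replicate 1 (1.51 to 1.63), intervals that do not overlap.

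Among the miR-34 and miR-449 genes, Mir34c held 48.9% of the counts of replicate 2 (95% Wilson interval 47.9 to 50.0) and 40.7% of those of replicate 1 (39.4 to 41.9). Mir34a held 43.7% (42.7 to 44.7) in replicate 2 and 50.3% (49.0 to 51.5) in replicate 1. Mir449a, at 5.97% in replicate 2 and 7.03% in replicate 1, and Mir34b, at 1.34% and 2.04%, made up nearly all of the rest. The leading gene of the family thus changed between the libraries. Mir34c was 8.20 times Mir449a in replicate 2 (95% exact interval 7.51 to 8.98) and 5.79 times in replicate 1 (5.22 to 6.44), so the leading genes of the 2 clusters did not keep 1 proportion either.

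**Figure D4:**
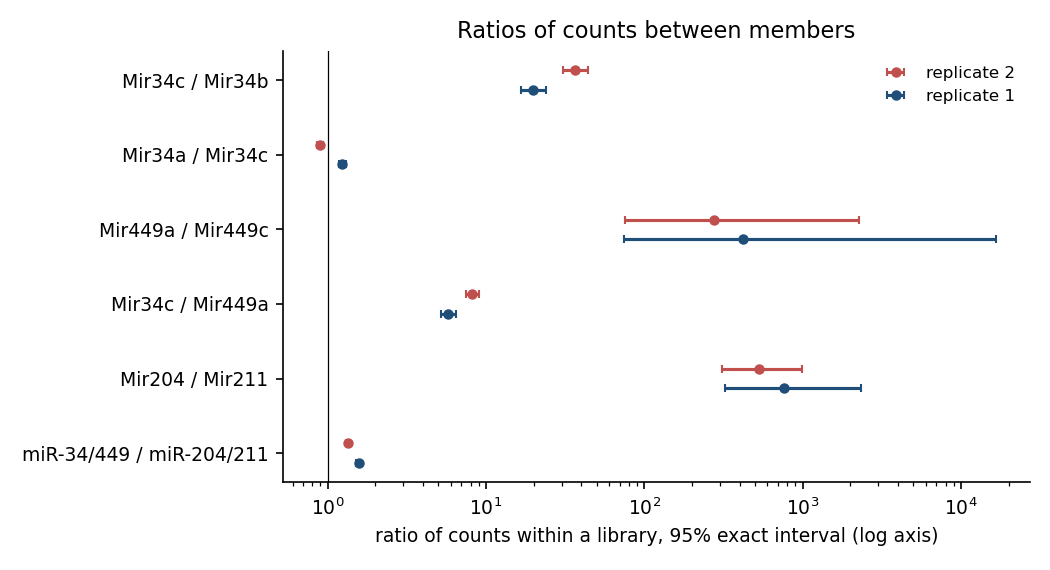
Ratios of counts between members within a library, on a log axis, with 95% exact binomial intervals and replicate 2 above replicate 1. Intervals of the libraries are apart for Mir34c over Mir34b, Mir34a over Mir34c, Mir34c over Mir449a and the 2 family sums, and overlap for Mir449a over Mir449c and Mir204 over Mir211.

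The levels of replicate 2 were then compared with those of replicate 1 to see which members differed by more than counting error. Each of the 420 genes was set against all other counts in Fisher's exact test, two-sided, with Benjamini-Hochberg adjustment at a threshold of 0.05. This compares the reads of 2 libraries and no condition, and the difference has no replicate check. Mir34c and Mir204 were higher in replicate 2, and Mir34a, Mir34b and Mir449a did not pass, so 2 of 5 members tested were called, both higher. Of all 420 genes 56.9% were called, 27.1% as higher and 29.8% as lower, so the number of members called is no result about them. With TMM factors, which scale by the bulk of the genes, the same 2 members were called beside 56.2% of all genes, 29% as higher and 27.1% as lower. With DESeq2 size factors they were called beside 56.7%, with 29.8% as higher and 26.9% as lower.

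Mir34c was 1.41-fold higher in replicate 2, at a log2 ratio of 0.49 (95% interval 0.42 to 0.56, adjusted p = 1.6e-42 by Fisher's exact test). Mir204 was 1.37-fold higher, at a log2 ratio of 0.45 (0.39 to 0.51, adjusted p = 1.1e-54 by the same exact test). In size these ratios were ordinary, since 32.4% and 36.4% of the tested genes differed by more between the libraries, and the median difference over all tested genes was 1.23-fold in either direction.

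Mir34a and Mir449a were among the genes that differed least. The log2 ratio of Mir34a was 0.02 (95% interval -0.04 to 0.09, adjusted p = 0.578 by the exact test), and 96.4% of tested genes had a larger difference. That of Mir449a was -0.01 (-0.20 to 0.18, adjusted p = 0.952 by the exact test), and its sign turned with each other scaling tried. For Mir449a, 98.6% of tested genes had a larger difference, and its interval allows a level between 0.873 and 1.13 times that of replicate 1. Mir34b had a log2 ratio of -0.37 (-0.75 to -0.01), and its adjusted p of 0.0684 by the same exact test did not pass, although its unadjusted p was 0.0394.

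Mir211 and Mir449c were not tested because of the minimum of 10 counts. With a minimum of 1 count the log2 ratio of Mir211 was 0.73 (95% interval -0.61 to 2.82, adjusted p = 0.421 by the exact test). The median log2 ratio of the 5 members tested was 0.02, beside -0.07 over all 420 genes. The plot of the replicate ratio against level shows the members within the cloud of other genes.

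**Figure D5:**
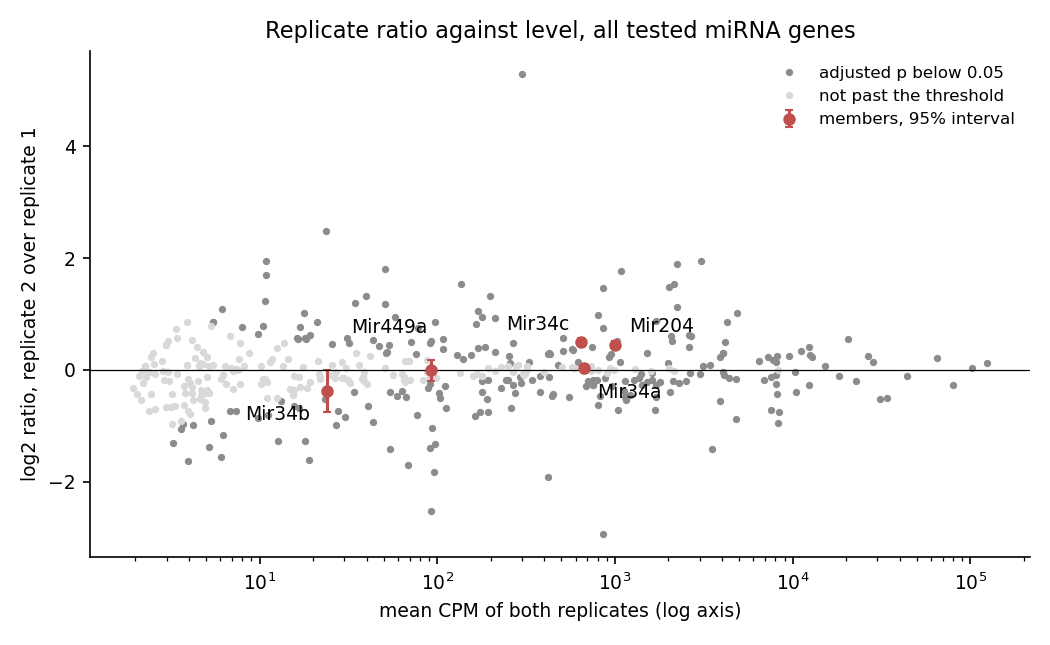
log2 ratio of replicate 2 over replicate 1 against mean CPM on a log axis, for 420 genes, with the 5 members in colour and their 95% intervals. Mir34c and Mir204 lie above 0 at 0.49 and 0.45, while Mir34a and Mir449a lie close to 0 and Mir34b lies below it.

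Genes whose levels in both libraries were nearest to those of each member were found by the Euclidean distance of log2(CPM + 0.5) over the 2 libraries. Mir376a (1203 CPM in replicate 2 and 845 in replicate 1) was nearest to Mir204, at a distance of 0.06, followed by Mir455 at 0.14. Mir3099 (654 and 513 CPM) was nearest to Mir34c, at 0.22, and Mir300 (651 and 663 CPM) to Mir34a, at 0.06. Mir1843b was second for both, at 0.26 from Mir34c and 0.17 from Mir34a. Mir3059 and Mir412 were nearest to Mir449a, at 0.09 and 0.11, and Mir135b and Mir5129 to Mir34b, at 0.12 and 0.23. With 2 libraries such likeness describes levels and no more.

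Other genes of the pathways and cell types were set beside the members. The list of miRNAs linked to p53 outside the family, which have been described as its targets or as responding to it, has 10 genes, of which 8 were tested, 3 were higher in replicate 2, 2 were lower and 3 did not pass. Since 56.9% of all 420 genes were called, this count is no result about the list. With DESeq2 size factors 4 were higher and 2 lower. Mir22, which limits proliferation in several cell types, was higher, with 14102 CPM in replicate 2 against 10626 in replicate 1, as was Mir143, a miRNA of smooth muscle, at 8430 and 7618 CPM, while Mir107, from an intron of Pank1, was lower at 2934 and 3099 CPM. The list's median log2 ratio was 0.17, and its members summed to 26666 CPM in replicate 2 and 22797 CPM in replicate 1.

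Of the epithelial miR-200 family, which maintains the epithelial state, all 5 genes were tested and detected, and all 5 were lower in replicate 2. They summed to 120 CPM in replicate 2 and 382 CPM in replicate 1. Their median log2 ratio was -1.40, beside -0.07 over all tested genes, of which 29.8% were lower. Because the lists were chosen with earlier results of these data known, this shared direction is a description and no independent finding. Mir200c, with the highest mean of the list, had 26.9 CPM in replicate 2 against 158 in replicate 1. In replicate 2 it was below Mir429, which had 49.5 CPM in replicate 2 and 131 CPM in replicate 1. In the sensory and eye list, which holds the Mir183, Mir96 and Mir182 cluster of sensory cells and the eye miRNA Mir184, 3 of 4 genes were tested and 2 were lower, with a sum of 125 CPM in replicate 2 against 289 in replicate 1. The median log2 ratio there was -1.33. In replicate 2 and replicate 1, Mir183 had 54.7 and 138 CPM and Mir182 had 31.6 and 104 CPM, while Mir184 had 38.5 and 39.4 CPM and did not pass. The 5 miR-200 genes, Mir183 and Mir182 were thus lower in the library where Mir34c and Mir204 were higher, and their part in the members' differences was not tested.

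No gene of the remaining marker lists was at 0. Their counts of called genes are given as values beside the 56.9% called over all 420 genes, and nothing about the lists is read from them. Of 3 red cell miRNAs, 2 were higher and none lower, and they summed to 142 CPM in replicate 2 and 95.4 CPM in replicate 1. Their median log2 ratio was 0.62. Of 4 microglial and leukocyte miRNAs, 2 were higher and none lower, at sums of 2038 CPM in replicate 2 and 1734 CPM in replicate 1. The sum and the median of this list differ in direction, since its median log2 ratio was -0.03. Mir150 and Mir146 were higher, at log2 ratios of 0.14 and 0.41, while Mir142 and Mir223, which did not pass, had -0.21 and -0.31. The endothelial Mir126a was higher, with 13591 CPM in replicate 2 against 11285 CPM in replicate 1. Of 4 neuronal miRNAs 1 was higher and 2 lower, and of 2 oligodendrocyte miRNAs 1 was higher and 1 lower, at sums of 6974 CPM in replicate 2 and 6526 CPM in replicate 1. Their median log2 ratios were -0.13 for the neuronal list, whose sum was higher in replicate 2, and 0.15 for the oligodendrocyte list. Under either other scaling 2 neuronal miRNAs were higher and 2 lower. Of the 33 listed genes outside the members, 12 share 20 or more bases with another annotated gene on either strand, Mir107 and Mir126a among them. Reads of such genes may be hard to place, but the search took both strands together and does not tell which counts are uncertain. The part of these cells in the members' differences was not tested.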

How the data were processed

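Small RNA reads of 2 hippocampus libraries were analysed. Per the deposited notes, the authors mapped to mm10 with GENCODE M21, and they deposited raw counts for 2202 miRNA genes, in 1 table for each library. The sources used here do not name the aligner, the counter or the trimming. Each table has 3 count columns without names: without regard to strand, sense and antisense, by their values. The sense column was used. The 4 leading rows of reads given to no gene, 63.3% of reads in replicate 2 and 61.3% in replicate 1, were left out of totals and tests. Both arms of a hairpin are counted together.

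All 2202 identifiers matched GENCODE M21. CPM, SD, 95% Wilson and exact (Clopper-Pearson) binomial intervals and Fisher's exact tests were computed with scipy 1.17.1. Intervals hold for the counting error of reads alone and leave out other variation between libraries. Reads copied by amplification are no independent molecules, so for the counting error of molecules the intervals may be too narrow. Ratios are on the scale log2(CPM + 0.5), which understates differences of low genes, while their intervals come from the counts without the added 0.5. With 1 group of 2 libraries, edgeR's quasi-likelihood test cannot be used for a comparison. TMM factors came from edgeR 4.0.16 and size factors from DESeq2 1.42.0, each with the exact binomial test at the scaled totals. The Fisher test was tested on simulated data, drawn with counting error alone around set changes. That check does not cover other variation between libraries. The members and lists were chosen with earlier results of these data known. Named genes are the members, other genes with their seeds, the 2 genes nearest in level to each tested member, and up to 3 of each list by mean CPM. Of the microglial and leukocyte list all 4 are named. Alternatives were the unstranded column, minimums of 1 and 100 counts or none, both scalings, a denominator without the most abundant gene, a pseudocount of 1 CPM, CPM per hairpin length and leaving out each replicate.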

Additional observations from a re-analysis of the deposited data

Results flagged for a closer look

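Of the 8 genes, Mir34b alone had reads in the antisense column, which the comparisons do not use and where no other member had a count. It had 13 antisense counts in replicate 2, above the 3 counts that a count of 0 allows, and 2 in replicate 1. They made up 9.49% of its counts on both strands in replicate 2 (95% Wilson interval 5.63 to 15.6) and 1.61% in replicate 1 (0.443 to 5.69), intervals that overlap narrowly. Btg4, whose intron holds Mir34b, is transcribed from that strand, and where these reads come from was not tested. Among the 420 genes compared between the libraries, 15 (3.57%) had more than 3 antisense counts in a library.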

How the results depend on the processing

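Of 117 alternative values over 26 results, 109 counted as the same. These kept their direction and call, stayed within the stated spread, or were counts of genes, which have neither. Such counts did move. Genes higher in replicate 2 went from 114 to 93 with a minimum of 100 counts. With TMM factors 122 were higher and 114 lower, and with DESeq2 size factors 125 and 113, against 114 and 125 in the main comparison. By hairpin length 6 of 8 members kept their places. The total of 109 is no measure of robustness, because many of the 117 values could not change. Each of 2 libraries always lies within the SD of their mean, so values without a replicate could not move. Another minimum count leaves a log2 ratio as it is and can change only its adjusted p. The share of the miR-34 and miR-449 genes moved to 0.164% in the denominator without the most abundant gene, by construction. The mean CPM of Mir34a and Mir449a, whose SD is small, also moved by more than it, to 727 and 100.4 CPM in the unstranded column and to 766 and 106 CPM in that denominator. Both genes have the same counts in the sense and unstranded columns, so these moves come from the totals alone. The log2 ratio of Mir449a turned to 0.027 with TMM factors, 0.033 with DESeq2 size factors and 0.0077 in the denominator without the most abundant gene, never past the threshold. Over all alternatives with a fit, Mir34c ranged from 0.49 to 0.54 and Mir204 from 0.45 to 0.49, and both passed in each. Mir34b ranged from -0.37 to -0.25 (adjusted p by the exact tests 0.0529 to 0.319) and Mir34a from 0.02 to 0.07 (0.0847 to 1). Leaving out a replicate leaves 1 library: the share of the miR-34 and miR-449 genes was then 0.132% to 0.155% and that of the miR-204 and miR-211 genes 0.0844% to 0.115%, while the replicate ratios could not be computed. No paired analysis was possible because the series has 1 group. Depth limits Mir211, whose interval runs from 0.657 to 7.04 times the level of replicate 1, and Mir449c and Mir449b.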
